A study of Caenorhabditis elegans with 2 samples.

Results

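The Roller, Squat, Long and Blister genes encode cuticle collagens, and the 9 studied here, rol-6, rol-8, sqt-1, sqt-2, sqt-3, lon-3, bli-1, bli-2 and bli-6, were chosen by name from 19973 protein-coding genes. Binding of BLMP-1, a zinc-finger transcription factor homologous to mammalian Blimp-1, was mapped by ChIP-seq, the sequencing of DNA pulled down with a bound protein, in first-stage (L1) larvae of C. elegans. There were 2 biological replicates and no other condition. The larvae were of strain OP109, genotype unc-119(ed3) III with the transgene wgIs109, which carries eGFP-tagged blmp-1. They were whole animals of mixed sex with age given as unknown, so each peak sums over all cells of the larva. Both replicates thus share the unc-119 mutation and the tagged transgene, and no untagged sample was analysed here.

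The cuticle is made by the epidermis, a layer of cells that secretes a new collagen coat before hatching and again at each molt. Cuticle collagens are short proteins with Gly-X-Y repeats that are hydroxylated, cleaved and crosslinked, and each molt brings waves of their transcription. The genes are named for what their mutants look like: Rollers twist, Squats are short and fat, Long worms are elongated and Blister worms have a cuticle whose layers come apart. BLMP-1 is known in this tissue as a regulator of genes that cycle with the molts.

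Each gene was given a window over its body and 3000 bp upstream of its annotated start. A peak counted for a gene when its summit, the point of highest signal, fell in that window. The authors' optimal list holds 8751 peaks kept by their filter on reproducibility (irreproducible discovery rate, IDR). These are the 8751 strongest entries of a pooled list of 30000. The lists of replicates 1 and 2 hold 27310 and 30000 entries. The authors describe the pooled and replicate lists as peaks and background, so their weaker entries may be background. Ranks count from 1, the strongest peak of a list, and the signal is the authors' value, whose scale is not given, so it is used only within a list. A summit is called matched in a replicate when 1 of the 8751 strongest summits of that replicate lies within 100 bp. Read depth is unknown, so no interval is given.

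The sequences around the summits that carry the results are shown first. Each runs 75 bp to either side of a summit, 5′ to 3′ on the coding strand of the gene, from RefSeq's WBcel235 genome, which is ce11. Capitals mark matches to AAAGTGAAA, the motif searched for BLMP-1, on either strand with at most 1 mismatch. The first 3 are the strongest peaks of lon-3 (chrV:12199615-12199765, minus strand), bli-1 (chrII:10706074-10706224, plus strand) and rol-6 (chrII:8731063-8731213, plus strand). The next is the farthest rol-6 summit (chrII:8730348-8730498, plus strand), the member peak window with 2 matches on chromosome II.
lon-3 at 1045 bp upstream: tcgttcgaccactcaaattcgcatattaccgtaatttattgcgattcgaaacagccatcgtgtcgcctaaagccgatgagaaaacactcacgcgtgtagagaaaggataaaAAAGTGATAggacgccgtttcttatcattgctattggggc
bli-1 at 2811 bp upstream: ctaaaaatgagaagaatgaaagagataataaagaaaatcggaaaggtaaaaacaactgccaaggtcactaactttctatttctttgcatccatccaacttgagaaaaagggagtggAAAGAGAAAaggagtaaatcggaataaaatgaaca
rol-6 at 1912 bp upstream: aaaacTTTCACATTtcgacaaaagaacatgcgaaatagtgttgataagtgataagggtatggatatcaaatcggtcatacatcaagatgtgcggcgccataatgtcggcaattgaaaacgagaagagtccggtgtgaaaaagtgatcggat
rol-6 at 2627 bp upstream: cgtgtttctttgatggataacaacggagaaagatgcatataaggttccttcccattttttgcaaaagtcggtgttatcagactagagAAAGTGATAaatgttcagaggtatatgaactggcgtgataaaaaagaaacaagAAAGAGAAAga

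The remaining sequences show the best peaks of the weaker members and, for bli-2, the peak of 1 replicate that holds the exact motif. They lie at chrII:7543084-7543234 (rol-8, plus strand), chrII:11337851-11338001 (sqt-1, minus strand), chrII:23000-23150 (sqt-2, plus strand), chrV:12352104-12352254 (sqt-3, plus strand) and chrII:5652563-5652713 (bli-2, minus strand).
rol-8 at 949 bp upstream: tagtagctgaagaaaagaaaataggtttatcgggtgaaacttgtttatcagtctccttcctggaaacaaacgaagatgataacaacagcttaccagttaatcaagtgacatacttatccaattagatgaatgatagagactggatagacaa
sqt-1 at 89 bp upstream: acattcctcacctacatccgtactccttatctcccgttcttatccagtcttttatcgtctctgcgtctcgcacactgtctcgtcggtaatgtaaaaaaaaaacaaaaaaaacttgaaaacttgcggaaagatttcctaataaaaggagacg
sqt-2 at 250 bp upstream: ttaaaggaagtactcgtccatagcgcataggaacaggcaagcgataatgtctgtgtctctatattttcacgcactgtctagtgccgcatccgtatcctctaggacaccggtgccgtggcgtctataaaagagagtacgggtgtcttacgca
sqt-3 at 566 bp upstream: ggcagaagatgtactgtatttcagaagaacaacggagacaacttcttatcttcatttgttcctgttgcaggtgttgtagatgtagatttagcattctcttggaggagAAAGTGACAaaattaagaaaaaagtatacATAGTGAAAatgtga
bli-2 at 204 bp upstream, replicate 2 only: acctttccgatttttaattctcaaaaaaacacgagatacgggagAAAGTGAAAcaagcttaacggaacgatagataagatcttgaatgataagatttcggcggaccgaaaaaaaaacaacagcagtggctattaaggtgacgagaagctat

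Of the 9 collagen genes, 7 held an optimal BLMP-1 summit in their window, against 35.9% of all protein-coding genes. The 2 without one were the blister collagens bli-2 and bli-6. The 7 genes together held 14 optimal summits, and all 14 lay upstream of the gene start, none in a gene body. Over all protein-coding genes, 73% of gene and summit pairs had the summit upstream. The members other than bli-1 are genes of 1041 to 1576 bp, so most of each of their windows lies upstream. The 73% was not taken over genes of like length. The windows of the members were 4041 to 6197 bp long with a median of 4190 bp, against a median of 5027 bp for all genes. Among the 14044 genes with windows up to 6197 bp, 30.4% held an optimal summit. In 5 of the 9 genes there were 2 or more (rol-6, rol-8, sqt-3, lon-3 and bli-1), against 11.9% of all genes. Only rol-6 and bli-1 held 2 or more that were matched in both replicates. With each summit given to its nearest start, lon-3 and bli-1 fell below 2. The share of all genes under these stricter counts is not given. The median of the best ranks was 3704 for the 7 genes and 3602.5 for all genes with a summit. The members' median depended on the library: it was 3259.5 over the 8 members bound in replicate 2 alone and 339 over the 5 bound in replicate 1 alone.

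The count of 7 did not change with narrower windows. It was 7 with 1500 bp upstream (29.5% of all genes), with 1500 bp upstream to 500 bp downstream of each start (27.5%) and with each summit given to its nearest start only (24.1%). In the 4375 strongest peaks it was 4, rol-6, rol-8, lon-3 and bli-1, against 21.4% of all genes. In the pooled list, whose weaker entries may be background, it was 8, against 60.8%.

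**Figure D1:**
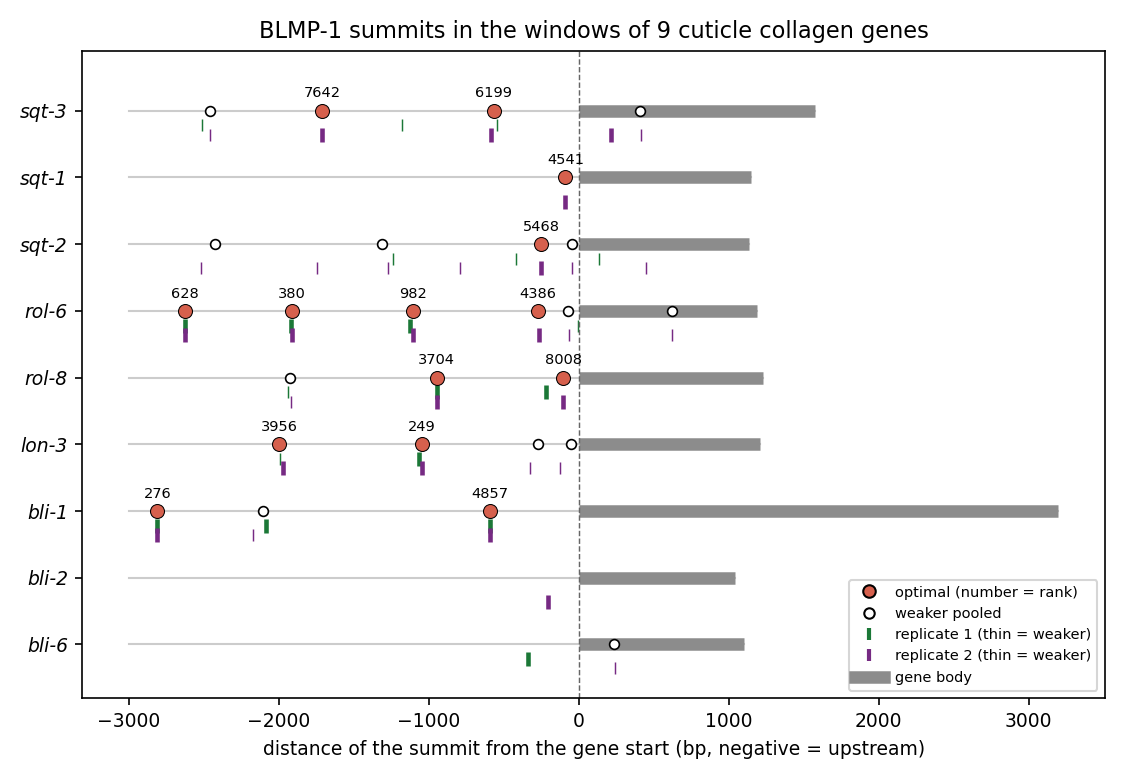
Summits of the 4 peak lists in the windows of the 9 collagen genes, by distance from the gene start in bp (negative is upstream), with filled circles for optimal peaks labelled by rank, open circles for weaker pooled peaks and ticks for each replicate (thick among its 8751 strongest, thin below). The 14 optimal summits all lie upstream, rol-6 has 4 of them, and bli-2 and bli-6 have none.

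The roller gene rol-6, whose dominant mutant is widely used as a marker of transgenic worms, had the most summits. Its gene (chromosome II, 8733050 to 8734239, plus strand, 3 exons) lies 6249 bp from the nearest protein-coding gene upstream. The strongest of its 4 optimal peaks lay 1912 bp upstream (rank 380, signal 701), where replicate 1 had rank 339 (signal 255) and replicate 2 rank 431 (signal 450). The peak 2627 bp upstream ranked 628 (signal 534) and the peak 1107 bp upstream 982 (signal 418). Both had a partner in each replicate, at ranks 1083 and 553 for the farther and 1884 and 801 for the nearer. The 3 distal peaks were thus matched in both replicates with summits at most 16 bp apart from the optimal ones.

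The peak nearest the rol-6 start, 274 bp upstream and in an exon of the antisense non-coding gene T01B7.11, was weaker and came from replicate 2. It ranked 4386 (signal 147), with rank 2932 in replicate 2 and no summit of replicate 1 within 100 bp. The 4 summits were spaced at 833, 805 and 715 bp. A count of 4 or more optimal summits was reached by 1.83% of protein-coding genes and by 0.406% of genes with windows up to 6197 bp. None of the 156 numbered collagen genes reached it. A weaker pooled summit just 70 bp upstream of the rol-6 start (rank 12312, signal 34.5) held an exact AAAGTGAAA, which none of the 4 optimal peaks did.

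**Figure D2:**
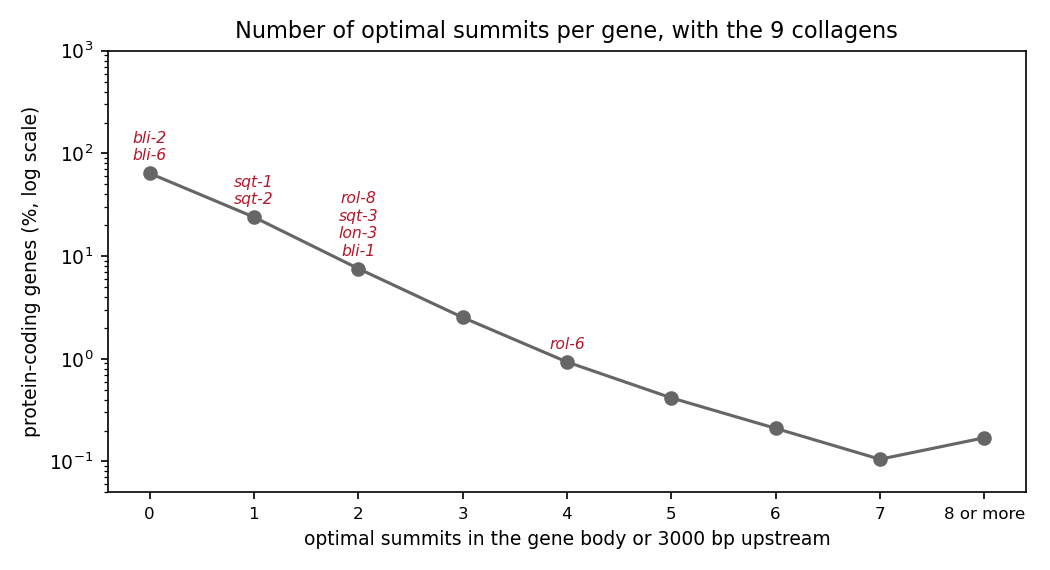
Share of protein-coding genes (percent, log scale) by the number of optimal summits in the gene body or 3000 bp upstream, with the 9 collagen genes written above their number. Genes with no summit make up 64.1%, and rol-6 stands at 4 summits, a number held by 0.931% of genes.

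The gene lon-3 had the highest ranked peak of the 9 in the optimal list and in replicate 2, and bli-1 in replicate 1. Loss of LON-3 makes long worms and extra LON-3 makes short ones, and body size signalling through the Sma/Mab branch of TGF-β acts upstream of it. Its gene (chromosome V, 12197437 to 12198645, minus strand, 2 exons) lies inside the oxoglutarate dehydrogenase gene ogdh-2, which is transcribed from the other strand. The peak 1045 bp upstream ranked 249 (signal 836) in the optimal list, 237 in replicate 1 (signal 297) and 263 in replicate 2 (signal 554). The ranks of the replicates differed by little here. The summit was in an intron of ogdh-2 and so in the window of that gene too. Its nearest start was that of lon-3, but it cannot be credited to lon-3 alone.

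A second lon-3 peak, 1997 bp upstream, ranked 3956 (signal 161), with rank 3002 in replicate 2 and 10952 in replicate 1. That rank in replicate 1 is outside its 8751 strongest, so the peak was matched in replicate 2 only. Its nearest annotated start belonged to ogdh-2, 315 bp downstream of it. Close to the lon-3 start, a pooled summit 54 bp upstream ranked 9845, below the optimal list.

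The gene sqt-3 encodes a collagen needed from the embryo onward, which the astacin protease DPY-31 is known to process. Its gene (chromosome V, 12352745 to 12354320, plus strand) had 2 annotated starts and 2 optimal peaks. The peak 566 bp upstream ranked 6199 (signal 103), at rank 4961 in replicate 2 (signal 88.5) and 17932 in replicate 1 (signal 11.2). The peak 1712 bp upstream ranked 7642 (signal 76.8), at rank 5718 in replicate 2 and with no replicate 1 summit within 100 bp. Among the members with an optimal peak, sqt-3 had the lowest best rank, and no summit of replicate 1 in its window was among that replicate's 8751 strongest.

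Within the sqt-3 gene, replicate 2 placed a summit in the 5′ UTR, 212 bp downstream of the first start, at rank 6741. A pooled summit 408 bp downstream of the first start, in a coding exon and 168 bp upstream of the second start, ranked 8911. This was the strongest pooled member summit outside the optimal list, and the rol-8 peak at rank 8008 the weakest inside it.

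The gene sqt-1 encodes a collagen whose alleles can give squat, roller or long worms and which interacts genetically with rol-6. It had 1 summit in all, on chromosome II (gene at 11336693 to 11337837, minus strand), 89 bp upstream of its first start. That peak ranked 4541 in the optimal list (signal 142) and 3154 in replicate 2 (signal 133). Replicate 1 had no summit of any strength in the window.

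At sqt-2, a further collagen gene of the Squat class near the left end of chromosome II (23325 to 24458, plus strand), the optimal peak lay 250 bp upstream. It ranked 5468 (signal 118), and 3365 in replicate 2 (signal 126). Replicate 1 had 3 summits in the window, none within 100 bp of this one and the best at rank 19420. The window of the downstream neighbour enee-1 also holds the peak.

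The second roller collagen gene, rol-8 (chromosome II, 7544108 to 7545335, plus strand), had a peak 949 bp upstream that both replicates shared. It ranked 3704 (signal 171), with rank 2597 in replicate 1 (signal 77.6) and 4781 in replicate 2 (signal 91.7), and the 3 summits lay within 1 bp. The peak 103 bp upstream ranked 8008 (signal 71.7) and had rank 7023 in replicate 2. The nearest strong summit of replicate 1, at rank 7887, lay 217 bp upstream, outside the 100 bp limit of a match. It was counted as matched when that limit was 200 bp.

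The blister collagens form the struts, columns that join the inner and outer layers of the adult cuticle and are absent from larval ones. The gene bli-1 (chromosome II, 10708960 to 10712156, plus strand, 5 exons) sits in a row of collagen genes inside the gene dph-2. Its strongest window peak, 2811 bp upstream, ranked 276 (signal 810), at rank 73 in replicate 1 (signal 476) and 675 in replicate 2 (signal 344). That summit lay closer to the start of the collagen gene col-80, 1052 bp upstream of it, so it cannot be credited to bli-1 alone. The peak whose nearest start was that of bli-1 lay 591 bp upstream and ranked 4857 (signal 133), with ranks 5861 and 4384 in replicates 1 and 2. Both bli-1 peaks were matched in both replicates.

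At bli-2 and bli-6 each strong peak came from 1 replicate. For bli-2 (chromosome II, 5651394 to 5652434, minus strand, inside the centriole kinase gene zyg-1), replicate 2 had a summit 204 bp upstream at rank 4948 (signal 88.8). Neither replicate 1 nor the pooled list had any summit in the window. For bli-6 (chromosome IV, 6377065 to 6378168, plus strand), replicate 1 had a summit 340 bp upstream at rank 3680 (signal 59.6), which lay nearer to the start of the divergent gene hrpf-2, 202 bp from it. The pooled list held only a summit in a bli-6 coding exon, at rank 29586 of 30000. Strong summits with no pooled summit within 100 bp numbered 544 of 8751 (6.22%) in replicate 1 and 208 (2.38%) in replicate 2.

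Support from the replicates was lopsided. Of the 14 optimal peaks, 7 were matched in both replicates, against 75.2% of all optimal peaks, and the other 7 in replicate 2 only, against 16.5%. The 7 shared peaks ranked from 249 to 4857 and the 7 others from 3956 to 8008. Rank went with support over the whole list as well. Rank and support are not independent, since the pooled signal comes from both replicates together. Among the 4375 strongest optimal peaks 94.7% were matched in both replicates, and 4.59% in replicate 2 only, and here 6 of 7 and 1 of 7 member peaks were. Among the 4376 weaker ones 55.8% were matched in both and 28.4% in replicate 2 only, and here 1 of 7 and 6 of 7 were. The part of library depth or quality in this was not tested.

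**Figure D3:**
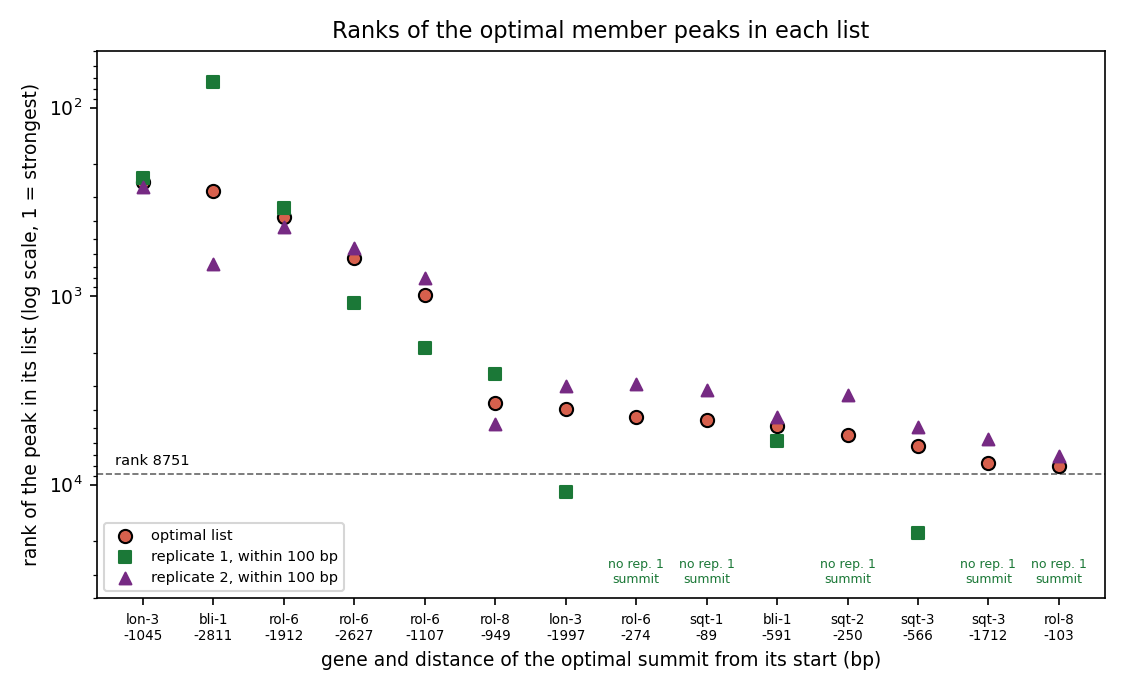
Rank (log scale, 1 is the strongest) of the 14 optimal member peaks in the optimal list and of the replicate summits within 100 bp, ordered by optimal rank and labelled by gene and distance from its start in bp. The dashed line marks rank 8751. Every peak has a replicate 2 summit above the line, and 5 have no replicate 1 summit.

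By distance from the start, the member peaks fell as follows. The 4 summits within 300 bp of a start (rol-6, rol-8, sqt-1 and sqt-2) ranked from 4386 to 8008, and 0 of the 4 were matched in both replicates, against 78.2% of all gene and optimal summit pairs at that distance. Of the 5 summits from 300 to 1500 bp upstream, 4 were matched in both, with ranks from 249 to 6199, against 75.6% of all pairs. Of the 5 from 1500 to 3000 bp upstream, 3 were, with ranks from 276 to 7642, against 75.5% of all pairs. Over all genes the share thus hardly changed with distance, but these shares cover peaks of all ranks. All 4 member summits within 300 bp are among the 4376 weaker optimal peaks, of which 55.8% were matched in both replicates. Rank and distance were not separated for these 4 summits, so their lack of shared support cannot be put down to distance. The furrow collagens dpy-3, dpy-7, dpy-8 and dpy-9 had best peaks within 300 bp that were matched in both replicates. Those furrow peaks were stronger, with ranks from 20 to 2925. The Dumpy collagens dpy-4 (101 bp upstream, rank 6550) and dpy-5 (174 bp upstream, rank 3478) had best peaks matched in replicate 2 only, like the 4 member summits.

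Ordered by best rank, the members were lon-3 (249), bli-1 (276), rol-6 (380), rol-8 (3704), sqt-1 (4541), sqt-2 (5468) and sqt-3 (6199), followed by bli-2 and bli-6 with no optimal peak. The rank of 276 is at the summit nearer to col-80. By the peak nearest its own start, rank 4857, bli-1 would stand between sqt-1 and sqt-2. The gene lon-3 (replicate ranks 237 and 263) stood above rol-6 (339 and 431) in both replicates. At the summit nearer to col-80, bli-1 could not be placed against either, since its replicate ranks of 73 and 675 enclosed theirs. For sqt-1, sqt-2 and sqt-3 replicate 2 gave ranks of 3154, 3365 and 4961, which fall within the replicate ranks of rol-8 except the last. The order of sqt-1, sqt-2 and sqt-3 rests on 1 replicate. The cuticle collagen closest in best rank was col-46 for rol-6 (rank 391), bli-1 for lon-3, col-93 for rol-8 (3743), col-97 for sqt-1 (4606), col-54 for sqt-2 (5179), col-125 for sqt-3 (6245) and col-80 for bli-1, which shares the same summit. Likeness here is the difference in best rank in 1 list.

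Body-shape collagens were then set beside the strut collagens of the adult cuticle. All 6 collagens that shape the larval and adult body (sqt-3, sqt-1, rol-6, rol-8, sqt-2 and lon-3) held an optimal summit. Of these, 3 of 6 held one matched in both replicates, against 29.7% of all genes. Of the 3 adult strut collagens 1 held an optimal summit, against 35.9% of all genes, and that one was bli-1 with its neighbour col-80. Among the 8751 strongest peaks of replicate 2 alone, where 36.4% of all genes had a summit, 6 of 6 body-shape and 2 of 3 strut collagens had one, bli-2 being the addition. In those of replicate 1, where 35.7% of all genes had one, the counts were 3 of 6 and 2 of 3, bli-6 being the addition. The higher count of the body-shape class thus depended on replicate 2. The collagen made from the embryo on, sqt-3, had a best rank of 6199. Adult bli-1 had 276 at the summit nearer to col-80 and 4857 at the peak nearest its own start, and bli-2 and bli-6 had none. The remaining body-shape genes were not ordered by stage. All peaks are of L1 larvae, so binding at the time the adult cuticle is made was not measured. With 3 and 6 genes and 2 samples of 1 condition, the difference between the classes was not tested.

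Other collagens gave the same window counts for comparison. The 6 furrow collagens (dpy-2, dpy-3, dpy-7, dpy-8, dpy-9 and dpy-10), which are transcribed early in each molt cycle, all held an optimal summit, each matched in both replicates, with a median best rank of 92 against 4122.5 for the 6 body-shape collagens. Their strongest peaks were that of dpy-8 at rank 20, 164 bp upstream, and the one that dpy-2 and dpy-10 share at rank 49. That shared peak enters the median of 92 for each of its genes. The furrow windows held 11 summits, of which 8 were distinct. Of 5 other Dumpy collagens 2 held a summit, dpy-5 at rank 3478 and dpy-4 at rank 6550, and neither was matched in both replicates. The adult collagens col-7 and col-19 had none, and of the dauer collagens col-2 had one at rank 2498 and col-40 none. Of the 156 numbered collagens 75 (48.1%) held one, with a median best rank of 3319, led by col-149 at rank 105 and col-80.

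Genes that make, cut and crosslink collagens are the rest of the pathway, and 10 of 11 held an optimal summit matched in both replicates, against 29.7% of all genes. Their windows were longer, with a median of 8095 bp. The strongest belonged to dpy-31, the astacin that processes SQT-3, at rank 198 and 665 bp upstream, and to doxa-1, a maturation factor of the dual oxidase, at rank 312. The prolyl 4-hydroxylase subunit genes dpy-18, phy-2 and pdi-2 had 3, 2 and 4 summits, with best ranks of 1039, 1503 and 712. The convertase gene bli-4 had 3 summits, the best at rank 540, and the dual oxidase gene bli-3 had 1 at rank 3874. Only bli-5, the gene of a protease inhibitor, had none, although a summit among the strongest of replicate 2 lay in its window.

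**Figure D4:**
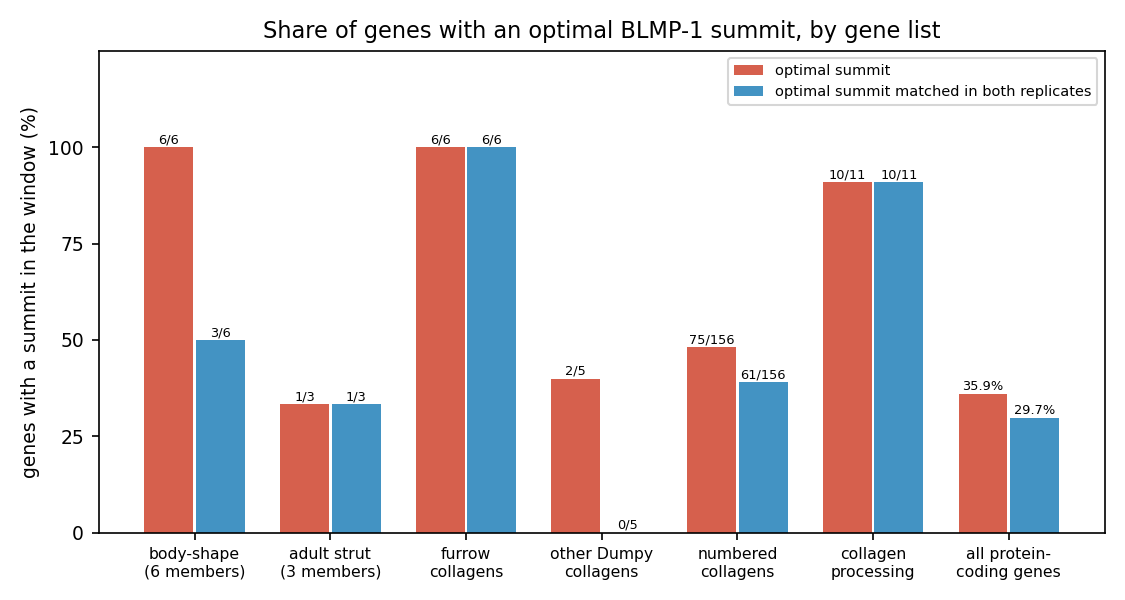
Percent of the genes of each list with an optimal summit in the gene body or 3000 bp upstream (red) and with one matched in both replicates (blue), with counts above the bars. The body-shape collagens stand at 6 of 6 and 3 of 6, the adult strut collagens at 1 of 3, and all protein-coding genes at 35.9% and 29.7%.

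The motif was found at part of the optimal summits, always with a mismatch. Of the 14 windows of 75 bp to either side of a summit, 7 held AAAGTGAAA with at most 1 mismatch, against 32% of all optimal peaks. These were 2 of rol-6, both of sqt-3, both of bli-1 and the strongest of lon-3. Over the whole peak interval the count was also 7 of 14, but against 45.3% of all optimal peaks. The exact motif was in 0 of 14, against 5.42% of all optimal peaks. The lon-3 match and 1 rol-6 match, 40 and 16 bp downstream of their summits, had the same letters, AAAGTGATA. The rol-6 peaks 1107 and 274 bp upstream, the lon-3 peak 1997 bp upstream and the peaks of rol-8, sqt-1 and sqt-2 held no match. The exact motif did occur at the bli-2 summit that only replicate 2 showed. TGATAA, searched on both strands as a letter string recognised by GATA factors, was in 6 of 14 windows against 18.8% of all optimal peaks, and AGGTCA, a nuclear receptor string, in 1 of 14 against 8.96%. TGATAA can overlap AAAGTGATA followed by A, as it does in the rol-6 window at 2627 bp, and a match shows only that the letters are there.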

How the data were processed

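BLMP-1 ChIP-seq peaks were analysed in 2 biological replicates of L1 larvae. The deposited narrowPeak lists hold a peak signal set by the authors, whose scale is not given. Per the deposited text listings, the authors called peaks and background against a control on each replicate and on both together, and IDR gave the optimal list. No source used here names the aligner, the peak caller, a version or the IDR cutoff. Per the labels the size range was 150 to 350 and the builds were ce10 and ce11. The ce10 lists were not used here, since the annotation is of ce11.

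Summits (start plus offset) were read 1-based and set against Ensembl release 115 gene models (WBcel235, ce11). All peak ends lay within the reference chromosomes. Genes were counted once by gene ID, each with its body and 3000 bp upstream. Replicate matches used 100 bp and the 8751 strongest peaks. The motif search used 75 bp and at most 1 mismatch. The member and comparison lists, the stage classes and the named genes were chosen with earlier results of these data known. Named besides the members are genes that share or neighbour a member summit, the strongest genes of each comparison list, and the collagen closest in rank. One gene of the dauer list, col-6, was not matched in the annotation and not used here. No test was run: there is 1 condition, and genes of a list are not replicates. The gene window, distances and motif search were tested on simulated data and returned every planted case. Alternatives were shorter windows, the nearest start only, stricter and looser peak lists, each replicate left out and other motif settings. Tools were Python 3.11.15, numpy 2.4.6, pandas 2.3.3 and matplotlib 3.10.9.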

Additional observations from a re-analysis of the deposited data

How the results depend on the processing

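The 7 members with an optimal summit stayed at 7 with windows of 1500 bp upstream, with windows around each start and with the nearest start only. They became 4 with the 4375 strongest peaks and 4 with peaks matched in both replicates (rol-6, rol-8, lon-3 and bli-1), 8 with the pooled list, and ran from 5 to 8 with a replicate left out. The 14 member summits became 9 in both windows of 1500 bp, 7 with the 4375 strongest peaks, 7 with matched peaks and 26 with the pooled list, and ran from 10 to 16 without a replicate. The 7 summits matched in both replicates became 4 in both windows of 1500 bp and lay between 6 and 9 under the other settings. The strut count of 1 became 2 with the pooled list and 2 without either replicate. The body-shape count of 6 became 3 with the 4375 strongest peaks and 3 with matched peaks, and ran from 3 (without replicate 2) to 6. The share of all genes was 21.4% with the 4375 strongest peaks, 29.7% with peaks matched in both replicates and 60.8% with the pooled list. Member peaks with the motif went from 7 to 0 with exact matches only, and were 8 within 150 bp, where the share of all peaks was 46.9%. Over the whole peak interval they stayed at 7, where the share of all peaks was 45.3%. The median best rank of 3704 ran from 339 to 3259.5 without a replicate, over the 5 and 8 genes left. No paired analysis was possible because the replicates form 1 group with nothing to compare. The causes of these changes were not tested beyond the smaller or larger lists themselves. Depth is unknown, so a missing peak shows only that none was listed.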
